A study of Mus musculus with 28 samples.

Results

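The comparison described here set regulatory T cells of the spleen with titles reading aTreg against regulatory T cells of the thymus in mice that lack an enhancer of Foxp3. It rested on 8 of the 28 libraries of the series. The titles name 4 of them as knockout (KO) splenic aTreg and 4 as KO thymic Treg, and these titles alone chose the members. Regulatory T (Treg) cells are CD4 T cells that hold immune responses in check, and Foxp3 is the transcription factor that defines them. All donors were male mice aged 6 to 8 weeks with a Foxp3-gfp reporter allele. In KO mice this allele lacked conserved non-coding sequence 3 (CNS3) and carries the label Foxp3-deltaCNS3-gfp, and in wild-type (WT) mice the reporter was otherwise intact. The titles do not expand the letters a and r in aTreg and rTreg. Values of 4 KO rTreg libraries, the other splenic Treg population, and of 3 WT aTreg and 3 WT thymic Treg libraries are set beside the main comparison. The design text speaks of 2 littermates, and the labels do not tie libraries to animals, so p-values measure the spread between libraries, which may in part be technical. Organ, sorted population and the handling of each organ are one and the same split between these groups and cannot be told apart.

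Treg cells arise in the thymus from developing CD4 T cells that receive strong signals through the T cell receptor (TCR), and CNS3 is an intronic element of Foxp3 that helps to open the gene at that stage. After leaving the thymus, some Treg cells keep a resting profile with the lymph node homing receptor Ccr7. Others, after antigen contact, lose this receptor and gain inhibitory receptors, interleukin 10 and receptors for inflamed tissue.

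Gene counts summed to 22037995 to 34747179 per library in the 8 libraries, and 14617 to 15393 genes had at least 1 count. Reads outside any gene made up 42.3 to 46.7% of those counted as genic, ambiguous or outside. Levels are given in CPM, read counts scaled to one common library total after TMM normalisation. Values such as 2.88 ± 0.17 in brackets are log2 fold changes and their standard errors, KO aTreg over KO thymic Treg. In bulk libraries, fewer cells of a type and less RNA per cell cannot be told apart. A two-sided exact permutation test over libraries compared 11 single values between the groups, and its smallest possible p is 0.0286. None passed after adjustment (lowest adjusted p = 0.0629). The sums for B cell, myeloid, gamma delta T cell, stromal and handling genes each reached that smallest p, with no overlap of libraries. Their adjusted p depends on how many values reach it, so the outcome does not show that the groups were alike. Of these sums, those for B cell, gamma delta T cell and handling genes were higher in KO aTreg, and those for myeloid and stromal genes lower. The gamma delta sum was low, at 2.41 to 2.64 CPM in KO aTreg and 0.816 to 1.92 CPM in KO thymic Treg libraries. It rests on 3 tested genes, of which 0 were called higher and 1 lower, and it shares Blk with the B cell list. The summed myeloid markers lay at 229.9 to 267 CPM in KO aTreg libraries, against 443 to 1041 CPM in KO thymic Treg libraries, where libraries 1 and 2 were highest. The sum stood at 319 to 413 CPM in WT aTreg and 291 to 409 CPM in WT thymic Treg libraries. Both groups carried the Treg markers Foxp3, Il2ra, Ctla4, Ikzf2 and Tnfrsf18 in every library. The effector markers Cd44, Icos, Klrg1, Prdm1 and Itgae were higher and Ccr7 lower in KO aTreg, whereas Ccr8 did not pass. The rise of Itgae lost its call without thymic libraries 1 and 2 (adjusted p = 0.117). Of the thymic-stage markers, Cd24a, Rag1 and Cd8a were lower in KO aTreg and Ccr9 was higher. The falls of Cd24a (-1.23 ± 0.43) and Cd8a (-0.95 ± 0.38) lost their call without 1 library, aTreg 2 or 4 for Cd24a (adjusted p up to 0.0664) and any but aTreg 3 and thymic 3 for Cd8a (up to 0.120). With the summed myeloid markers as covariate their signs turned (0.48 and 0.52). The summed B cell markers lay at 266 to 295 CPM in KO aTreg and 201 to 227 CPM in KO thymic Treg libraries. Of 12 tested B cell markers, 8 (66.7%, against 20.6% of all genes) were higher in KO aTreg and none was called lower, with a median log2 fold change of 1.42. The summed plasma cell markers lay at 20.4 to 188 CPM in KO aTreg and 2.45 to 26.8 CPM in KO thymic Treg libraries, with overlap. The part of B lineage RNA in rises reported below was not tested.

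Of 13338 genes tested, 5587 (41.9%) differed at an adjusted p under 0.05, with 2747 higher and 2840 lower in KO aTreg cells. At 756 genes (5.67%) the change was tested to exceed 2-fold, 330 higher (2.47%) and 426 lower (3.19%). With the summed myeloid markers as a covariate, chosen after seeing the data, this split was 281 higher and 230 lower, and with the no-gene read share as covariate it was 206 higher and 304 lower. The median log2 fold change over all genes was -0.01. The libraries of the groups did not overlap at 4862 genes (36.5%). A count for a gene list therefore has to be read against a background in which 20.6% of all genes were higher and 21.3% lower. Lists and members were chosen with earlier results of these data known, so a share beyond this background is a description and not a test.

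**Figure D1:**
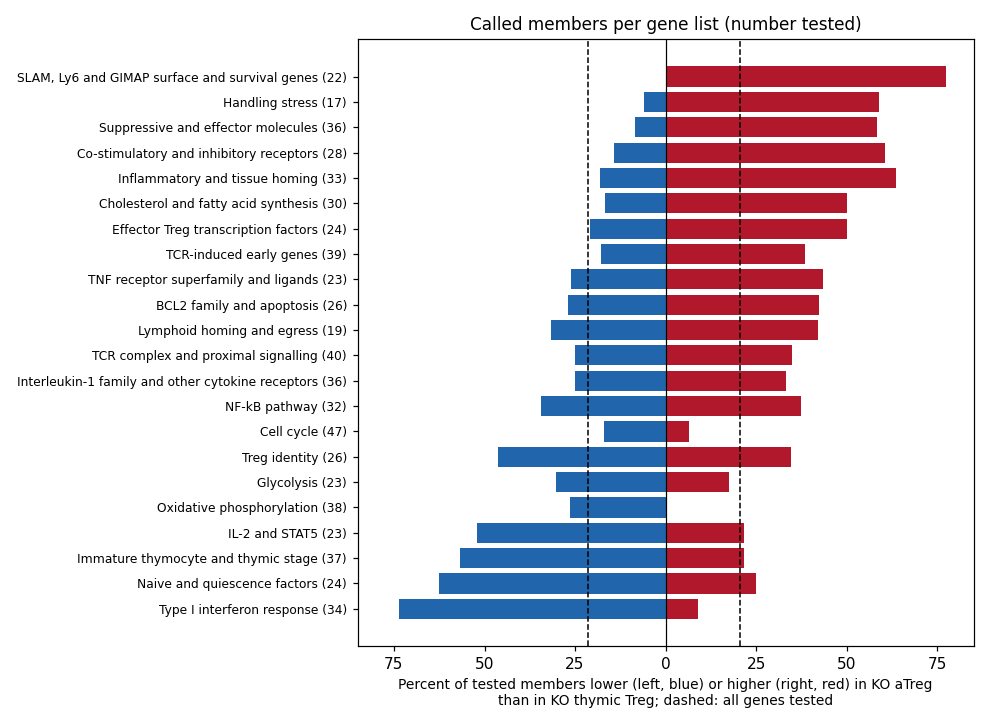
Share of tested members of each gene list that were lower (left, blue) or higher (right, red) in KO aTreg than in KO thymic Treg libraries, in percent, with the number tested in brackets. Dashed lines mark 21.3% lower and 20.6% higher over all genes tested. Lists and members were chosen with earlier results of these data known. The type I interferon list reaches furthest to the lower side and the SLAM, Ly6 and GIMAP list furthest to the higher side.

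Foxp3 itself did not differ beyond the spread of the libraries. It read 492, 520.1, 549.8 and 513 CPM in KO aTreg libraries, against 585, 446, 532 and 614 CPM in KO thymic Treg libraries. The ranges overlapped, and the log2 fold change was -0.07 ± 0.08 (adjusted p = 0.519). The gene lies at chrX:7573644-7595245 on the plus strand (GRCm38). CNS3 is not part of the counted exons, so these values do not check the genotype labels. Ccdc22, a subunit of an endosomal sorting complex, read 13.1, 13.2, 13.7 and 11.002 CPM in KO aTreg and 18.3, 13.9, 16.4 and 20.5 CPM in KO thymic Treg libraries. Its groups lay apart, and the log2 fold change of -0.44 ± 0.12 passed the test (adjusted p = 0.00347). Ccdc22 lies at chrX:7593809-7605517 on the minus strand, so its end overlaps that of Foxp3. The strand setting of the counting is not given, so whether reads in the shared stretch counted for either gene is not known. Ikzf2, which encodes the Treg transcription factor Helios, read 1751, 1800.1, 1553 and 1784 CPM in KO aTreg and 1583, 2005, 1552 and 1654 CPM in KO thymic Treg libraries, a log2 fold change of 0.02 ± 0.14 that did not pass (adjusted p = 0.925).

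Of 26 tested genes of the Treg identity list, 9 (34.6%) were higher and 12 (46.2%) lower, with a median log2 fold change of -0.19. Those that fell included members of the TNF receptor superfamily that thymic Treg precursors are known to carry. Tnfrsf18 (GITR) read 808, 852, 788 and 873 CPM in KO aTreg and 1183, 1350.0, 1312 and 1209.6 CPM in KO thymic Treg libraries (-0.61 ± 0.06). Tnfrsf4 (OX40) fell by less than 2-fold as well, with means of 1172 ± 71.3 CPM in KO aTreg and 1745 ± 99.99 CPM in KO thymic Treg (SD, n = 4 each). Ecm1, an extracellular matrix protein, fell furthest on the list, at 224, 257, 287 and 284 CPM in KO aTreg and 1083, 862, 959 and 1029.9 CPM in KO thymic Treg libraries (-1.90 ± 0.08). Swap70, which links phosphoinositide signals to the actin skeleton, was the other fall over 2-fold (-1.30 ± 0.10). Ikzf4, which encodes the Ikaros family factor Eos, and Gpr83, an orphan receptor of Treg cells, fell with log2 fold changes of -1.06 and -0.92. The 9 that rose included Ctla4, Nt5e, Entpd1 and Il10ra. Ctla4, the inhibitory receptor that competes for CD80 and CD86, read 1050.0, 1098, 1076 and 1042 CPM in KO aTreg and 653, 712, 628 and 591 CPM in KO thymic Treg libraries (0.72 ± 0.12). Nt5e (CD73) and Entpd1 (CD39), the enzymes that turn extracellular ATP into adenosine, rose with log2 fold changes of 0.97 and 0.84. Il10ra, the ligand-binding chain of the interleukin 10 receptor, had 149.8 ± 12.6 CPM in KO aTreg and 49.2 ± 10.6 CPM in KO thymic Treg (1.61 ± 0.12).

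**Figure D2:**
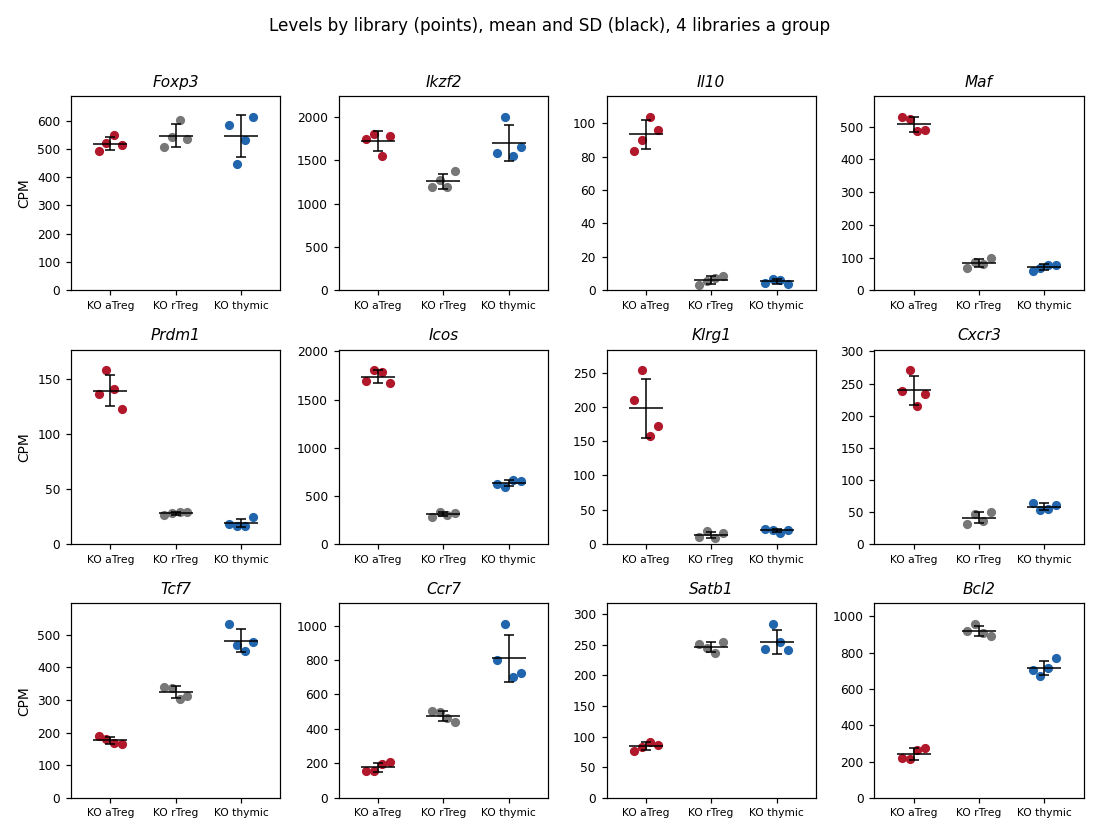
CPM of 12 genes in each KO aTreg (red), KO rTreg (grey) and KO thymic Treg (blue) library, with the mean and SD of 4 libraries in black. Foxp3 and Ikzf2 overlap between aTreg and thymic Treg libraries, Il10, Maf, Prdm1, Icos, Klrg1 and Cxcr3 are higher in every aTreg library, and Tcf7, Ccr7, Satb1 and Bcl2 are lower in every one.

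Transcription factors of effector differentiation rose in KO aTreg cells. Of 24 tested, 12 (50%) were higher and 5 (20.8%) lower, with a median log2 fold change of 0.51, and 7 of the rises exceeded 2-fold. Prdm1, which encodes Blimp-1 and is needed for interleukin 10 production by effector Treg cells, read 136, 157, 141 and 122 CPM in KO aTreg libraries, against 18.2, 16.2, 16.6 and 24.4 CPM in KO thymic Treg libraries. The groups lay far apart (2.88 ± 0.17, adjusted p = 4.8e-14), and KO rTreg libraries stood at 28.1 ± 1.37 CPM. Maf, which drives Il10 transcription in several T cell lineages, had 531, 523, 486 and 491 CPM in KO aTreg and 59.3, 67.5, 78.1 and 76.6 CPM in KO thymic Treg libraries (2.85 ± 0.13, adjusted p = 3.2e-16). Every aTreg library exceeded every thymic one by several fold, while KO rTreg stood at 83.2 ± 12.5 CPM. Ikzf3, which encodes Aiolos, rose by 1.71, Id2, an inhibitor of E proteins, by 1.30, and Nfil3 and Runx3, which act in effector and mucosal T cells, by 2.42 and 1.35. Tbx21, the T-bet gene, rose over 2-fold with 4.85 ± 1.07 CPM in KO aTreg and 0.907 ± 0.254 CPM in KO thymic Treg (2.40 ± 0.45). The 5 that fell were Myb, Bhlhe40, Stat3, Eomes and Gata3. Irf4, which is needed for effector Treg cells, read 96.2 ± 9.44 CPM in KO aTreg and 83.9 ± 8.01 CPM in KO thymic Treg and did not pass (0.20 ± 0.11).

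Genes of the naive and quiescent state moved the other way. Of 24 tested, 15 (62.5%) were lower and 6 (25%) higher, with a median of -0.47. Tcf7, which encodes TCF-1 and restrains effector programmes, read 189.7, 179, 168 and 166 CPM in KO aTreg libraries, against 532, 469, 449 and 478 CPM in KO thymic Treg libraries (-1.46 ± 0.07, adjusted p = 5.6e-16), and KO rTreg libraries stood at 324 ± 18.3 CPM. Ccr7, the receptor for the chemokines of lymph nodes and of the thymic medulla, had 156, 154, 196 and 205 CPM in KO aTreg and 798, 1008, 704 and 727 CPM in KO thymic Treg libraries (-2.19 ± 0.10). Neither gene's libraries overlapped. Satb1, a chromatin organiser of thymocytes, fell by 1.60 on the log2 scale, and Bach2, which also restrains effector programmes, and Lef1 fell with log2 fold changes of -1.55 and -0.75. Id3, Foxo1 and Klf2, also of this list, had log2 fold changes of -0.78, 0.19 and -0.45 (adjusted p = 2.9e-05, 0.0304 and 0.0131). The call of Foxo1 was lost without any 1 of 4 libraries, aTreg 3 and 4 and thymic 1 and 3, and that of Klf2 without aTreg 1 or thymic 2 (adjusted p up to 0.101 for Foxo1 and 0.108 for Klf2).

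Suppressive and effector molecules were higher at 21 of 36 tested genes (58.3%) and lower at 3 (8.33%), with a median log2 fold change of 0.98. Il10, the anti-inflammatory cytokine, was among the largest rises of all genes. It read 83.2, 90.1, 104 and 96.0 CPM in KO aTreg libraries, against 4.50, 6.83, 5.95 and 3.83 CPM in KO thymic Treg libraries, a 17.8-fold difference (4.16 ± 0.23, adjusted p = 9.8e-14). KO rTreg libraries stood at 6.02 ± 2.28 CPM, below KO aTreg in edgeR's test of those groups (adjusted p = 3.6e-13, where 41.6% of all genes were called). Gzmb, which encodes the cytotoxic protease granzyme B, had 141, 208, 112 and 109.7 CPM in KO aTreg and 32.3, 32.2, 39.0 and 29.1 CPM in KO thymic Treg libraries (2.11 ± 0.29). Fgl2, a secreted suppressive protein, had 201 ± 19.7 CPM in KO aTreg and 57.9 ± 8.44 CPM in KO thymic Treg (1.80 ± 0.26). Ifng, the type 1 effector cytokine, read 14.8, 14.2, 18.4 and 16.8 CPM in KO aTreg and 2.14, 1.54, 2.63 and 1.66 CPM in KO thymic Treg libraries, low in both but without overlap (3.01 ± 0.30). Fasl, the death receptor ligand, rose by 1.73, and the calcium-binding proteins S100a4, S100a6 and S100a11, known from memory T cells, rose by 1.80, 1.93 and 1.71. Lta, a cytokine of lymphoid tissue formation, fell by 1.10. Tgfb1, Ebi3, Gzma and Prf1 gave log2 fold changes of 0.24, 0.13, 0.19 and 0.22 and did not pass.

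Receptors of co-stimulation and inhibition were higher at 17 of 28 genes (60.7%) and lower at 4 (14.3%), with a median of 0.49. Icos, the inducible co-stimulator, read 1690.2, 1802, 1789 and 1676 CPM in KO aTreg libraries, against 625, 592, 668 and 649 CPM in KO thymic Treg libraries (1.46 ± 0.07, adjusted p = 9.9e-16). Klrg1, an inhibitory lectin of terminally differentiated cells, had 210.2, 253, 158 and 172 CPM in KO aTreg and 21.7, 20.6, 16.7 and 20.5 CPM in KO thymic Treg libraries (3.31 ± 0.19). Lag3 and Tigit, inhibitory receptors of activated T cells, rose by 3.35 and 2.13. KO rTreg libraries stood at 309 ± 21.3 CPM for Icos, 13.4 ± 4.36 CPM for Klrg1, 27.9 ± 3.95 CPM for Lag3 and 79.2 ± 19.1 CPM for Tigit. Cd44, the adhesion receptor used to sort antigen-experienced T cells, rose less, to 363 ± 11.6 CPM in KO aTreg, against 254 ± 13.5 CPM in KO thymic Treg (0.51 ± 0.06). Cd200 and Cd96 fell with -0.71 and -0.93, and Cd69, which marks both recent activation and thymic retention, gave 0.06 and did not pass (adjusted p = 0.649). In the TNF receptor list, 10 of 23 genes were higher (6 without thymic library 2) and 6 lower, and 2 of the falls exceeded 2-fold. These were Tnfsf8, the CD30 ligand (-1.59 ± 0.07), and Fas, the death receptor (-1.21 ± 0.07). Tnfrsf25 (DR3), a co-stimulatory receptor of Treg cells, fell by 0.97. Tnfrsf1b (TNFR2) rose to 700.4 ± 41.2 CPM in KO aTreg, against 435 ± 74.5 CPM in KO thymic Treg.

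Receptors for inflamed and peripheral tissue rose at 21 of 33 genes (63.6%) and fell at 6 (18.2%), with a median of 0.61. Cxcr3, which guides cells to type 1 inflammation, read 239, 270.4, 215 and 234 CPM in KO aTreg and 63.8, 53.5, 54.9 and 61.3 CPM in KO thymic Treg libraries (2.04 ± 0.16). Ccr2, a receptor for monocyte chemoattractants, had 344, 359, 401 and 320.4 CPM in KO aTreg and 79.4, 74.2, 90.7 and 113 CPM in KO thymic Treg libraries (1.99 ± 0.26). Both sets of libraries lay apart. Ccr4 and Ccr3 rose by 1.67 and 2.35. Ccr10, a skin and mucosal homing receptor, read 6.05, 7.61, 5.62 and 5.03 CPM in KO aTreg libraries, against 0.124, 0, 0 and 0.0845 CPM in KO thymic Treg libraries, and 2 of the 4 thymic libraries held no read of it. Ccr6 was an exception, with 160.4, 135, 141 and 136 CPM in KO aTreg and 413, 316, 371 and 389 CPM in KO thymic Treg libraries (-1.38 ± 0.14). Ccr8, a receptor of tissue Treg cells, did not pass (-0.11 ± 0.09). Among genes of lymphoid homing and egress, 8 of 19 were higher and 6 lower. S1pr1, the receptor by which T cells leave thymus and lymph nodes, fell to 295 ± 24.0 CPM in KO aTreg, against 632 ± 24.8 CPM in KO thymic Treg (-1.10 ± 0.07). Gpr183 and Cxcr5, which position cells at and in B cell follicles, rose by 1.31 and 1.22. Ccr9, a receptor of thymocytes and of gut homing, was higher in KO aTreg libraries, at 209.5, 199, 288 and 272 CPM, than in KO thymic Treg libraries, at 109, 118, 105 and 106 CPM (1.14 ± 0.19).

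The list for immature thymocytes and thymic stages fell at 21 of 37 tested members (56.8%) and rose at 8 (21.6%), with a median of -0.60. Its members, too, were chosen with earlier results known, so these shares describe the list and not thymic genes at large. Sox4, a transcription factor of early T cell development, read 0.222, 0.349, 0.671 and 0.243 CPM in KO aTreg libraries, against 9.83, 13.6, 13.7 and 14.5 CPM in KO thymic Treg libraries (-5.12 ± 0.26, adjusted p = 2.3e-15). Arhgap20, a GTPase-activating protein, had 1.74, 1.21, 3.06 and 2.67 CPM in KO aTreg and 45.1, 57.3, 43.3 and 55.1 CPM in KO thymic Treg libraries (-4.54 ± 0.20), with KO rTreg in between at 13.8 ± 2.01 CPM. Dntt, the terminal transferase that adds nucleotides during receptor gene assembly, read 1.02, 0.825, 0.713 and 0.416 CPM in KO aTreg and 33.0, 15.6, 17.3 and 16.0 CPM in KO thymic Treg libraries (-4.80 ± 0.66). The recombinase genes were nearly absent from KO aTreg libraries. Rag1 had 3 counts summed over the KO aTreg libraries and 385 over the KO thymic Treg libraries, a ratio of 114 in favour of the thymus (95% Poisson interval 39.1 to 555). Rag2 had 0 and 204 counts in the same order, at least 60.6-fold lower in KO aTreg when 3 counts over the group serve as the floor. Ptcra, the pre-TCR alpha chain, had 1 count in KO aTreg and 179 counts in KO thymic Treg. The interval and the floor reflect counting error alone. The coreceptor gene Cd8b1 read 23.0 ± 2.08 CPM in KO aTreg and 41.1 ± 6.91 CPM in KO thymic Treg, and Cd4 did not pass (-0.08 ± 0.14). Those that rose included Tox2, Plxnd1, Ccr9, Chd7, Notch1, Zbtb7b and Hdac7.

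Signalling through the TCR gave a mixed picture. Of 39 tested early genes, 15 (38.5%) were higher and 7 (17.9%) lower, with a median of 0.21. The 15 included the AP-1 subunits Fos, Fosb, Jun and Junb. Fos read 294, 275, 483 and 589 CPM in KO aTreg libraries, against 19.1, 17.8, 29.8 and 48.7 CPM in KO thymic Treg libraries (3.82 ± 0.37). Dusp1, a MAP kinase phosphatase, and Zfp36, which degrades AU-rich messages, rose by 2.59 and 1.75. Several receptor-induced factors fell or did not pass. Nr4a1, the Nur77 gene, fell to 197 ± 5.78 CPM in KO aTreg, against 309 ± 34.5 CPM in KO thymic Treg (-0.65 ± 0.09), Myc fell by 0.95, and Dusp4 by 1.68. Egr1, Egr2, Egr3 and Nr4a3 gave 0.22, 0.19, 0.70 and -0.44 and did not pass. Genes known to be induced by cell handling were higher at 10 of 17 and lower at 1. Their summed level lay at 3437 to 4305 CPM in KO aTreg, 3901 to 5222 CPM in KO rTreg and 2331 to 2680 CPM in KO thymic Treg libraries. Fos stood at 562 ± 219 CPM in KO rTreg libraries, so both splenic populations were high, and the part of handling in these rises was not tested. Of 40 genes of the receptor complex and proximal signalling, 14 were higher and 10 lower. Lax1, an adaptor that dampens receptor signals, rose over 2-fold (1.76 ± 0.09), Lcp2 (SLP-76), a scaffold of the receptor signal, rose by less (0.50 ± 0.05), and Themis, a thymic selection adaptor, fell over 2-fold (-1.24 ± 0.08). The NF-kB list had 12 of 32 genes higher and 11 lower, with only Malt1, the paracaspase of antigen receptor signalling, past 2-fold (1.67 ± 0.10). Tnfaip3 (A20), a brake on NF-kB, rose by 0.92, and the kinase Ikbke fell by 0.71. Nfkb1 and Rela did not pass (-0.04 and 0.11).

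The interleukin 2 and STAT5 list fell at 12 of 23 genes (52.2%) and rose at 5 (21.7%), with a median of -0.26. Bcl2, the survival factor, read 217, 213, 264 and 273 CPM in KO aTreg libraries, against 705, 673, 713 and 768 CPM in KO thymic Treg libraries (-1.56 ± 0.07, adjusted p = 7.8e-16). Stat5a, the transcription factor downstream of interleukin 2, had 66.8, 67.5, 67.0 and 73.0 CPM in KO aTreg and 221, 183, 198 and 232 CPM in KO thymic Treg libraries (-1.60 ± 0.08). Neither gene's libraries overlapped, and KO rTreg stood at 919.9 ± 26.3 CPM for Bcl2 and 104 ± 5.81 CPM for Stat5a. Cish, a STAT5 target that inhibits cytokine and TCR signals, fell by 0.66. Il2ra (CD25), the alpha chain of the receptor, read 1133, 1323, 1414 and 1528 CPM in KO aTreg and 1819, 1732, 1653 and 1980.0 CPM in KO thymic Treg libraries. These did not overlap, yet the difference did not pass in the fit of all 28 libraries (-0.41 ± 0.34, adjusted p = 0.351). In a fit of the 8 libraries alone it passed (adjusted p = 0.00139), and with the summed myeloid markers as covariate its sign turned (0.87). Socs3 and Pim1 rose by 1.70 and 1.24. In the apoptosis list, 11 of 26 genes were higher and 7 lower. Bcl2l1 (Bcl-xL) and Mcl1 fell by 0.49 and 0.26, Casp1, an inflammatory caspase, rose by 1.16, and the death inducer Bcl2l11 (Bim) did not pass (0.14 ± 0.08). Of 36 cytokine receptor genes, 12 were higher and 9 lower. Il1rl1 (ST2), the interleukin 33 receptor of tissue Treg cells, had 32.2, 36.4, 30.3 and 30.2 CPM in KO aTreg and 11.5, 11.3, 12.01 and 15.2 CPM in KO thymic Treg libraries (1.37 ± 0.16). Il12rb1, a chain of the interleukin 12 and 23 receptors, rose by 1.61. Ifngr2, a chain of the interferon gamma receptor, fell to 51.1 ± 2.46 CPM in KO aTreg, against 124 ± 11.01 CPM in KO thymic Treg. Tgfbr3, a co-receptor for TGF-beta, fell by 1.32.

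Genes of the type I interferon response were lower in KO aTreg cells as a group. Of 34 tested, 25 (73.5%) were lower, 3 (8.82%) higher and 6 did not pass, with a median log2 fold change of -0.54. Irf7, the factor that amplifies interferon production, read 87.1, 102, 81.7 and 123 CPM in KO aTreg libraries, against 311, 252, 302 and 288 CPM in KO thymic Treg libraries (-1.55 ± 0.13, adjusted p = 1.8e-10). Ifit1, an inhibitor of viral RNA translation, had 74.0, 109.9, 72.4 and 147 CPM in KO aTreg and 359, 324, 318 and 334 CPM in KO thymic Treg libraries (-1.73 ± 0.21). Usp18, the protease that removes ISG15 and limits the receptor's signal, had 84.1, 109, 98.7 and 158 CPM in KO aTreg and 339.7, 304, 324 and 301 CPM in KO thymic Treg libraries (-1.49 ± 0.15). At all 3 genes, aTreg library 4 was the highest of its group and still below every thymic library. Oasl1 and Oasl2, members of the oligoadenylate synthetase family, fell with -1.92 and -2.54, and Ifi44 with -2.49. The KO rTreg means lay between those of the groups at Ifit1 (139 ± 55.9 CPM), Irf7 (126 ± 26.6 CPM) and Usp18 (248 ± 47.0 CPM), and at Ifit1 and Irf7 the rTreg libraries overlapped the aTreg libraries. Ly6a, Ly6c1 and Samhd1 were the 3 members that rose, of which Samhd1 lost its call without aTreg library 4 or thymic library 1 (adjusted p = 0.128 and 0.0815). Ly6a (Sca-1), a surface antigen of activated T cells, rose over 2-fold (1.72 ± 0.11).

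**Figure D3:**
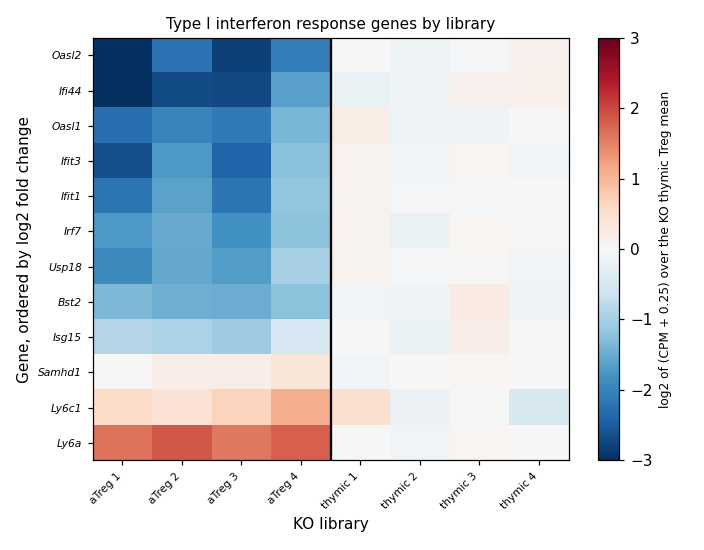
The 12 type I interferon response genes named in the text, in the 4 KO aTreg libraries (left) and the 4 KO thymic Treg libraries (right). Colour gives log2 of (CPM + 0.25) over the KO thymic Treg mean, genes ordered by log2 fold change, and 9 of the 12 were called lower while Ly6a, Ly6c1 and Samhd1 at the foot were called higher.

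The promoters of these genes are shown because the members fell together. Interferon-stimulated genes are commonly switched on through the interferon-stimulated response element, which is bound by interferon-activated transcription factors and whose core carries paired GAAA repeats. RefSeq promoters (GRCm38.p6) matched 24 of the 34 members by symbol. The 250 bases before the gene start were searched on both strands for GAAANNGAAA and its reverse complement TTTCNNTTTC, with overlapping matches counted separately. The motif stood in 9 of the 24 members (37.5%), in 8 of the 19 matched members that were lower (42.1%) and in 1 of the other 5. It stood in 333 of 9858 tested genes that matched (3.38%) and in 936 of all 27025 genes of the table (3.46%). A match describes letters in the window and not binding. The 4 lower members with a match and the largest falls were Ifit3, Ifit1, Bst2 and Isg15. Their windows lie at chr19:34583279-34583528 on the plus strand for Ifit3, chr19:34640639-34640888 on the plus strand for Ifit1, chr8:71537473-71537722 on the minus strand for Bst2 and chr4:156200819-156201068 on the minus strand for Isg15. They are printed 5′ to 3′ along the gene's strand with matches in capitals.
Ifit3: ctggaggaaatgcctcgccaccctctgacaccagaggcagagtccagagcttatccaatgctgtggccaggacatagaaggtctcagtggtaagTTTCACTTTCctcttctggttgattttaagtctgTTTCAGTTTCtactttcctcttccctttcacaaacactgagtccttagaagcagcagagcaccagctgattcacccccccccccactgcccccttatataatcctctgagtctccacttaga
Ifit1: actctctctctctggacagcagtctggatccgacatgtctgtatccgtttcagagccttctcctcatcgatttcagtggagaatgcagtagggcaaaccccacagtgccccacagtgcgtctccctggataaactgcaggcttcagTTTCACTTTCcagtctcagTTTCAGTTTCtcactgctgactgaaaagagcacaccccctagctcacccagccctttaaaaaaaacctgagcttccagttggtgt
Bst2: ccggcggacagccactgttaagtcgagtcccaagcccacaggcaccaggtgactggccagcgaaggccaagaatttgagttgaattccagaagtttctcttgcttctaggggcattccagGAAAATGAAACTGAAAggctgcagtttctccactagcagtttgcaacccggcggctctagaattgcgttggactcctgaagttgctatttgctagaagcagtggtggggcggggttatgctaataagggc
Isg15: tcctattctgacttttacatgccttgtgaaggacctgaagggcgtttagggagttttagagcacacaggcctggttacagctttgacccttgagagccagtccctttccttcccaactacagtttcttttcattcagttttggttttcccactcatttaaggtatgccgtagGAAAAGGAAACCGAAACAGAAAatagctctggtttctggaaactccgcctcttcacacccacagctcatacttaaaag
Ifit3, a partner of Ifit1, read 26.7, 50.4, 31.3 and 70.5 CPM in KO aTreg and 179, 158, 174 and 158 CPM in KO thymic Treg libraries. Bst2 (tetherin), which holds budding virions at the cell surface, had 39.5, 36.1, 35.5 and 42.5 CPM in KO aTreg and 95.7, 93.0, 121 and 94.1 CPM in KO thymic Treg libraries. Isg15, the ubiquitin-like modifier, had 38.0, 36.1, 33.1 and 49.9 CPM in KO aTreg and 71.0, 61.8, 80.5 and 68.6 CPM in KO thymic Treg libraries. None of the 3 overlapped between the groups. The windows of Irf7, Oasl1, Oasl2 and Ifi44 held no match.

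Surface and survival genes of the SLAM, Ly6 and GIMAP families rose at 17 of 22 members (77.3%), and none was called lower by edgeR's test. At an unadjusted p under 0.05, and by limma-voom and DESeq2, 0 were lower as well, although 1 was called lower by edgeR without thymic library 2. Gimap7, a GTPase of lymphocyte survival, had 831, 828, 777 and 823 CPM in KO aTreg and 353, 338, 272 and 227 CPM in KO thymic Treg libraries (1.45 ± 0.16), and Gimap4 and Gimap5 rose by 0.55 and 0.52. Slamf7 rose by 1.01 and Sh2d1a, the SLAM adaptor SAP, by 0.59. Genes of cholesterol and fatty acid synthesis were higher at 15 of 30 (50%) and lower at 5, with a median of 0.32. The 15 included the sterol enzymes Cyp51, Nsdhl and Mvd, with log2 fold changes of 0.83, 0.52 and 0.63. The sterol exporters Abca1 and Abcg1 fell by 1.95 and 1.08, and Scd2, a stearoyl-CoA desaturase, by 1.58. Abca1 read 16.9, 19.5, 14.6 and 17.7 CPM in KO aTreg and 67.7, 77.7, 50.04 and 69.99 CPM in KO thymic Treg libraries. Glycolytic genes were higher at 4 of 23 and lower at 7 (11 without thymic library 2). Eno3 and Eno2, enolase isoforms of muscle and neurons, were the 2 falls over 2-fold, and Eno3 had 36.6, 36.1, 35.2 and 36.2 CPM in KO aTreg and 186, 206, 181 and 177 CPM in KO thymic Treg libraries (-2.38 ± 0.08). Ldhb, a lactate dehydrogenase subunit, fell by 0.80. Gapdh, which has many near-identical copies in the genome, read only 4.35 CPM in KO aTreg and 2.16 CPM in KO thymic Treg, so its rise of 1.01 is uncertain. Subunits of oxidative phosphorylation fell at 10 of 38 (26.3%), none past the over-2-fold test, with Atp5a1 of the ATP synthase at -0.37. None was called higher by edgeR's test, and 0 at an unadjusted p under 0.05 or by limma-voom and DESeq2. Of 47 cell cycle genes, 3 (6.38%) were higher and 8 (17.0%) lower. Mki67, a marker of cycling cells, read 107, 133, 83.1 and 116 CPM in KO aTreg and 61.1, 94.1, 73.9 and 71.7 CPM in KO thymic Treg libraries with overlap, and its rise passed the test (0.55 ± 0.19, adjusted p = 0.0237). The call was lost without aTreg library 2 or 4 or thymic library 1 or 4 (adjusted p 0.0511 to 0.0883). Cdkn2c and Mcm6 were the other rises, and that of Mcm6 was lost without aTreg library 3 or thymic library 1 (adjusted p = 0.0534 and 0.0538). Cdkn2d, which encodes the CDK4 and CDK6 inhibitor p19, was the fall over 2-fold (-1.18 ± 0.07), and the replication factors Mcm5 and Mcm7 fell by 0.64 and 0.59.

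The largest changes by the naming rule are considered next. The 12 largest rises began with Bpifa2 and Amy1, secreted proteins of salivary glands, whose aTreg means were set largely by library 1. Bpifa2 read 152, 1.62, 6.13 and 1.80 CPM in KO aTreg and 0.0310, 0.0358, 0.0399 and 0.0282 CPM in KO thymic Treg libraries, and 338, 2.15, 115 and 1.81 CPM in KO rTreg libraries. Amy1 read 33.5, 0.539, 2.27 and 0.833 CPM in KO aTreg and 0.527, 0.107, 0.0798 and 0.169 CPM in KO thymic Treg libraries. In both genes aTreg library 1 was far above the others of its group, although no aTreg library was as low as a thymic one. Without that library the log2 fold changes were 6.37 for Bpifa2 and 2.34 for Amy1 and did not pass (adjusted p = 0.0587 and 0.176). Sostdc1, a secreted BMP and Wnt antagonist, read 18.8, 9.74, 1.97 and 7.18 CPM in KO aTreg and 0.0310, 0.715, 0.239 and 0.0282 CPM in KO thymic Treg libraries (5.26 ± 0.93). The more even rises were Il10, the transcription factors Klf4, Fos and Tox2, the gap junction protein Gjb2, the basement membrane protein Nid2, the G protein subunit Gna14, and Sccpdh and D8Ertd82e. Klf4 read 20.6, 20.1, 28.5 and 32.5 CPM in KO aTreg and 1.68, 1.68, 1.24 and 1.72 CPM in KO thymic Treg libraries (adjusted p = 4.6e-11), and 21.7 ± 8.01 CPM in KO rTreg. Gjb2 read 18.6, 23.6, 19.5 and 23.4 CPM in KO aTreg and 2.39, 2.04, 1.40 and 1.44 CPM in KO thymic Treg libraries (3.55 ± 0.18), and 4.95 ± 0.710 CPM in KO rTreg. Nid2 read 18.0, 18.0, 14.1 and 13.6 CPM in KO aTreg and 1.68, 1.502, 1.08 and 1.49 CPM in KO thymic Treg libraries. All 3 were without overlap, and Gjb2 and Nid2 were more even among the aTreg libraries than Klf4. The Klf4 values followed the library order of the summed handling genes, which read 3571, 3437, 4244 and 4305 CPM in KO aTreg libraries. The part of handling in this rise was not tested.

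**Figure D4:**
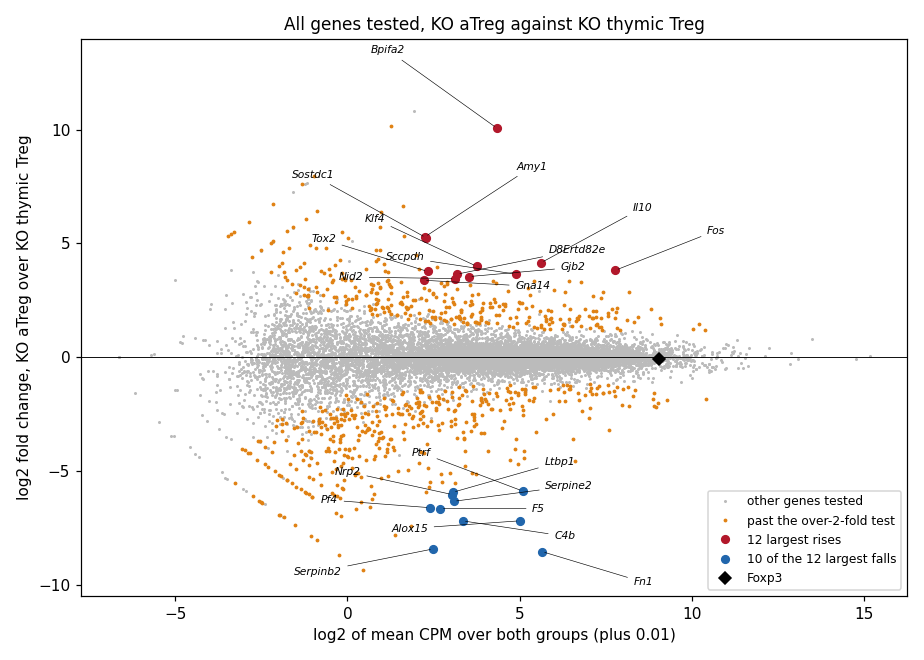
Each of 13338 genes by the log2 of its mean CPM (x) and its log2 fold change, KO aTreg over KO thymic Treg (y). Orange genes pass the over-2-fold test (756 genes), red and blue mark the 12 largest rises and 10 of the 12 largest falls by the naming rule, and the diamond marks Foxp3 at -0.07.

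The 12 largest falls differed in how even they were across the thymic libraries. Fn1, the matrix protein fibronectin, read 0.133, 0.317, 0.378 and 0.208 CPM in KO aTreg libraries, against 135, 162, 36.5 and 65.0 CPM in KO thymic Treg libraries. Alox15, a lipoxygenase of macrophages and eosinophils, read 0.222, 0.349, 0.420 and 0.694 CPM in KO aTreg and 87.4, 94.7, 27.3 and 45.3 CPM in KO thymic Treg libraries. Both were highest in thymic libraries 1 and 2, and so were Serpinb2, C4b, F5, Pf4 and Ltbp1. Lyz2, a lysozyme gene of myeloid cells, read 45.6, 34.6, 39.4 and 30.1 CPM in KO aTreg and 425, 585, 195 and 188 CPM in KO thymic Treg libraries, with the same libraries on top. Of 14 tested myeloid markers, 7 were lower in KO aTreg (3 without thymic libraries 1 and 2) and none was called higher by edgeR's test (0 also at an unadjusted p under 0.05 and by limma-voom and DESeq2), and each of the 14 had reads in all 8 libraries. The part of myeloid RNA in these falls was not tested. In WT mice edgeR's test called 1 of the 14 myeloid markers higher and 0 lower (lower also 0 at an unadjusted p under 0.05). Fn1 read 0.338, 0.0737 and 0.299 CPM in WT aTreg and 66.6, 14.5 and 26.5 CPM in WT thymic Treg libraries. Alox15 read 0.743, 0.0737 and 0.233 CPM in WT aTreg and 32.5, 5.92 and 15.6 CPM in WT thymic Treg libraries. The summed myeloid markers read 409, 300 and 291 CPM in the same WT thymic Treg libraries, also highest in library 1. The rest of the falls were even. Of 7 tested markers of thymic epithelium and stroma (12 listed, the others below the filter on low counts), 5 were lower and 1 higher, with a median of -1.59. Their summed level lay at 169 to 186 CPM in KO aTreg and 252 to 295 CPM in KO thymic Treg libraries, most of it from Pecam1, an adhesion molecule of endothelium and leukocytes (148 ± 5.81 CPM in KO aTreg and 258 ± 21.7 CPM in KO thymic Treg). In KO rTreg libraries, also of the spleen, the sum lay at 293 to 341 CPM, so a high sum was not particular to the thymus. The part of stromal RNA in these falls was not tested. Ptrf, a caveolar coat protein, read 1.29, 1.17, 1.09 and 0.972 CPM in KO aTreg and 92.0, 41.2, 59.98 and 74.6 CPM in KO thymic Treg libraries (-5.89 ± 0.23, adjusted p = 1.3e-17). Nrp2, a semaphorin and growth factor receptor, read 0.0445, 0.317, 0.420 and 0.174 CPM in KO aTreg and 13.8, 19.9, 16.2 and 15.4 CPM in KO thymic Treg libraries (-6.04 ± 0.34). Serpine2, a protease inhibitor, fell by 6.34 with thymic libraries between 13.7 and 20.6 CPM. In KO rTreg libraries Ptrf stood at 6.05 ± 0.584 CPM and Nrp2 at 3.52 ± 0.887 CPM, above aTreg and below the thymus.

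The same contrast in WT mice, which shares no library with the KO contrast, called 5377 genes (40.3%; 19.9% higher and 20.4% lower), and 3777 genes were called in both. Of these, 3765 had the same direction. Across the 13338 genes the log2 fold changes of the KO and WT contrasts had a Pearson r of 0.83, as a description, since genes are not independent replicates. The difference between the contrasts was tested for each gene as (KO aTreg minus KO thymic Treg) minus (WT aTreg minus WT thymic Treg). It passed at 113 genes (0.847%), 48 positive (0.36%) and 65 negative (0.487%). The count was 30 without WT thymic library 2 and 197 without KO thymic library 4. At 78 of the 113 the KO contrast was smaller in size with the same sign, at 6 it was larger, and at 29 the signs differed. At 107 of the 113 the gap between KO and WT means, taken as the log2 of their ratio, was wider among thymic Treg than among aTreg libraries.

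The 8 genes with the smallest p show this arrangement on the log2 scale. In CPM the gap was wider among aTreg libraries at Icos, Ly6a, Glrx and Lgmn. Icos read 1690.2, 1802, 1789 and 1676 CPM in KO aTreg and 1901, 2002 and 2140.2 CPM in WT aTreg libraries, but 625, 592, 668 and 649 CPM in KO thymic Treg and 416, 452 and 495 CPM in WT thymic Treg libraries. Its log2 fold change was 1.46 in KO and 2.15 in WT mice, a difference of -0.69 ± 0.10 (adjusted p = 0.000549). Ly6a read 253, 237, 263 and 251 CPM in KO thymic Treg and 115, 126 and 154 CPM in WT thymic Treg libraries, and its contrast was smaller in KO by -1.14 ± 0.16 (adjusted p = 0.000197). Glrx, a glutaredoxin, read 80.5, 70.1, 80.1 and 80.5 CPM in KO thymic Treg and 46.6, 47.3 and 52.2 CPM in WT thymic Treg libraries (-0.90 ± 0.11, adjusted p = 2.3e-05). Lgmn, the lysosomal protease legumain, had 118 ± 12.3 CPM in KO aTreg and 153 ± 8.42 CPM in WT aTreg, and 75.9 ± 9.36 CPM in KO thymic Treg and 46.0 ± 3.99 CPM in WT thymic Treg (-1.10 ± 0.12, adjusted p = 1.3e-05). At these 4 genes, every KO thymic library exceeded every WT thymic library. The same held for the summed myeloid, B cell, CD8 T cell and NK and innate lymphoid markers. B cell sums read 201 to 227 CPM in KO and 166 to 175 CPM in WT thymic Treg libraries. CD8 T cell sums read 299 to 336 CPM in KO and 176 to 227 CPM in WT thymic Treg libraries. The dendritic, plasma cell, gamma delta T cell, stromal and erythroid sums overlapped. The part of such RNA in the gaps at the 4 genes was not tested. Ctsz, the cathepsin Z gene, did not pass in KO mice (-0.09) and rose in WT mice (0.54). Syngr2, a vesicle protein, fell in KO (-0.48) and rose in WT mice (0.19). Ralgps2 and Prrg1 fell in both, by less in KO (-0.33 and -0.53) than in WT mice (-0.98 and -1.76).

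Among list members, the difference was called negative at 1 of 24 effector transcription factors, Maf (-0.83 ± 0.19), and at 3 of 36 suppressive and effector molecules, Gzmb (-1.85 ± 0.44), Lgals1 (-0.83 ± 0.19) and S100a11 (-0.65 ± 0.14), while Il10 did not pass (-1.01 ± 0.34, adjusted p = 0.14). It was called negative at 2 of 28 receptors of co-stimulation and inhibition, Icos and Klrg1 (-1.39 ± 0.27), at 2 of 33 genes of inflammatory homing, Cxcr3 (-1.14 ± 0.25) and Itgam, and at 3 of 26 Treg identity genes, Il10ra (-0.91 ± 0.17), Capg (-0.68 ± 0.13) and Ecm1 (-0.53 ± 0.12). In the homing list, 1 further gene was called positive. The KO thymic Treg mean stood above the WT thymic Treg mean at each gene called negative here, for example at 33.1 ± 4.17 CPM in KO and 11.4 ± 0.876 CPM in WT for Gzmb, and at 19.9 ± 2.19 CPM in KO and 9.13 ± 1.38 CPM in WT for Klrg1. It was positive for Satb1 (0.47 ± 0.11) and Themis (0.52 ± 0.12), which were lower in KO than in WT thymic Treg, at 255 ± 19.8 CPM in KO and 365 ± 19.7 CPM in WT for Satb1. Bcl2l11, a mediator of thymocyte deletion, was also positive (0.67 ± 0.13), with 53.5 ± 3.57 CPM in KO thymic Treg and 75.2 ± 5.79 CPM in WT thymic Treg. For Foxp3 the difference was 0.02 ± 0.12 (adjusted p = 0.955). The cell cycle list had 3 genes higher and 8 lower in KO, and 27 higher and 3 lower in WT mice. The difference itself passed at 2 of its 47 genes, Birc5 and Cdkn2c. The interferon list had 3 higher and 25 lower in KO, and 3 higher and 22 lower in WT mice, and the difference passed at Ly6a alone. The myeloid markers Itgam and Fcgr3 were among the 113 as well, with 26.9, 32.0, 8.90 and 15.8 CPM of Itgam in KO thymic Treg and 10.9, 2.96 and 6.99 CPM in WT thymic Treg libraries. In 14 fits that each left out 1 library, the difference at Maf, Lgals1, S100a11, Satb1, Ecm1 and Nid2 lost its call in 6 fits each, at Gzmb and Themis in 9, at Itgam and Fcgr3 in 8, at Birc5 in 10, at Cxcr3 in 2 and at Il10ra in 1, and it kept its call in all 14 at Klrg1, Capg, Bcl2l11 and Cdkn2c. Each of the 13 genes with a lost call lost it without WT thymic library 2. The share of reads in no gene averaged 43.1 ± 1.27% in KO thymic Treg (SD, n = 4) and 47.5 ± 1.55% in WT thymic Treg libraries (n = 3). With that no-gene share as a covariate, chosen after seeing the data, 13 genes passed in place of 113. The 8 genes with the smallest p passed in every alternative run, that one included.

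**Figure D5:**
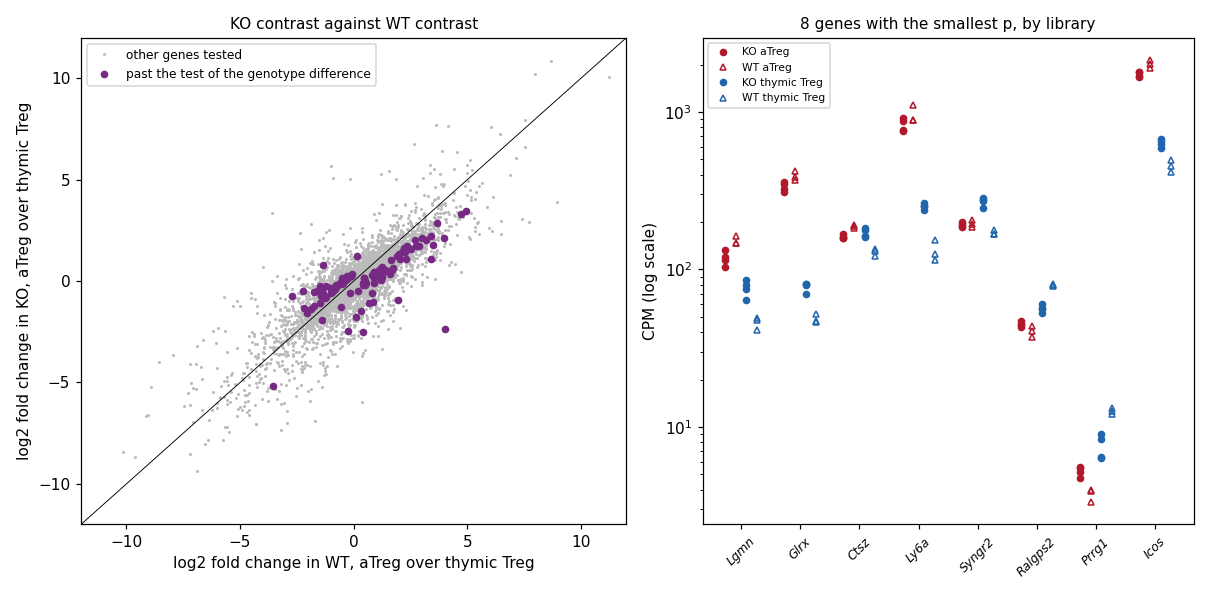
Left, log2 fold changes of aTreg over thymic Treg in KO (y) and WT mice (x) for 13338 genes, with the 113 genes past the test of the difference in purple and the line of equality. Right, CPM on a log scale by library for the 8 genes with the smallest p, KO as filled circles and WT as open triangles, aTreg red and thymic Treg blue. Among these 8 genes the KO and WT libraries lie further apart on the log scale in the thymus than in aTreg.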

How the data were processed

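The authors deposited 1 table of raw read counts per gene symbol for each library, and per the submitters' processing notes reads were trimmed with Trimmomatic, aligned to mm10 with STAR and counted with HTSeq. For versions, annotation and strand setting, the sources used here give nothing. Per the labels, total RNA of sorted cells was amplified by a SMART method and sequenced as read pairs. Lines that name no gene were left out of library sizes. Of the 23420 symbols, 21777 matched GENCODE M21, which gave positions only.

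Groups came from sample titles. All 28 libraries entered one fit with a mean per group in edgeR 4.0.16 (TMM scaling, filterByExpr, quasi-likelihood test, Benjamini-Hochberg adjustment over 13338 genes, threshold 0.05, 20 residual degrees of freedom, biological coefficient of variation 12.7%). A change over 2-fold was tested with glmTreat. CPM use TMM-scaled library sizes, and standard errors are the log2 fold change over the square root of F. Single values were compared by exact permutation. Gene lists (32) and members were chosen with earlier results of these data known, and 34 listed genes failed the filter on low counts or are not in the files.

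Largest changes were named among 337 genes past the over-2-fold test, reaching 8 CPM in the higher of both groups, with no overlap of libraries and no clone, predicted, small RNA or receptor segment name: the 12 largest rises and 12 largest falls. Of each list, members with the smallest p came first. Of the genotype difference, the 8 genes with the smallest p were named.

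Replicates of a group differed by more than sampling noise (chi-square per degree of freedom 7.51 to 37.6). On counts simulated from these libraries with 200 changed genes, the main test recovered 55.2% of 1.5-fold, 76.1% of 2-fold and 93.9% of 4-fold changes among 13201 genes, and the test of the genotype difference 29.9%, 55.2% and 78.8% among 13243 genes. Unchanged genes made up 10 of 160 calls of the main test and 6 of 115 calls of the other. The main contrast of the data called 41.9% of genes, a far larger share than was changed here. The adjustment depends on that share, so these recoveries hold for the simulated setting only. Alternatives were RLE scaling, no filter, each library left out, thymic libraries 1 and 2 left out, the contrast's libraries alone, a replicate block, limma-voom 3.58.1 and DESeq2 1.42.0 (R 4.3.3), and, chosen after seeing the data, covariates for the share of reads in no gene and for the summed myeloid markers. Promoters came from RefSeq. Some genes, among them 2 of the largest falls, are not reported here.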

Additional observations from a re-analysis of the deposited data

Results flagged for a closer look

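For genes named in the text and for the summed markers, the highest or lowest library of each group of 4 was checked for its gap to the others by Dixon's criterion (critical value 0.829). Chance flags about 1 in 20 groups, and 29 of 398 groups checked (7.29%) stood out. Above its group was KO aTreg library 1 at Amy1 (33.5 CPM, the others 0.539 to 2.27), Bpifa2 (152 CPM, the others 1.62 to 6.13), Ifngr2 (54.8 CPM, the others 49.8 to 50.1), Ptcra (0.0445 CPM, the others 0) and Rag1 (0.133 CPM, the others 0). Of these, Ptcra rests on 1 read and Rag1 on 3 reads, and with the other libraries at 0 the criterion is met by construction and says nothing about spread. KO aTreg library 2 stood above the rest at Gata3 (323 CPM, the others 282 to 287). Above its group was KO aTreg library 3 at C4b (0.504 CPM, the others 0 to 0.0635), Ccr3 (45.9 CPM, the others 37.6 to 38.7) and F5 (0.420 CPM, the others 0 to 0.0635). KO aTreg library 4 stood above the rest at Stat5a (73.0 CPM, the others 66.8 to 67.5). KO aTreg library 1 stood below the rest at Bcl2l11 (45.9 CPM, the others 61.8 to 64.0), Entpd1 (107 CPM, the others 115 to 116) and Hdac7 (109 CPM, the others 114 to 115). Below its group was KO aTreg library 2 at Cd8b1 (19.96 CPM, the others 23.7 to 24.4). KO aTreg library 3 stood below the rest at Gimap7 (777 CPM, the others 823 to 831). Below its group was KO aTreg library 4 at Plxnd1 (13.0 CPM, the others 15.9 to 16.3) and the summed myeloid markers (229.9 CPM, the others 263 to 267). Above its group was KO thymic Treg library 1 at Dntt (33.0 CPM, the others 15.6 to 17.3) and Fasl (6.52 CPM, the others 4.17 to 4.31). KO thymic Treg library 2 stood above the rest at Cd96 (593 CPM, the others 539 to 542). Above its group was KO thymic Treg library 3 at Bst2 (121 CPM, the others 93.0 to 95.7). KO thymic Treg library 4 stood above the rest at the no-gene read share (45.02%, the others 42.3 to 42.6). Below its group was KO thymic Treg library 2 at Capg (410.5 CPM, the others 536 to 544), Fgl2 (45.3 CPM, the others 61.7 to 62.8), Glrx (70.1 CPM, the others 80.1 to 80.5) and Zfp36 (111 CPM, the others 173 to 181). KO thymic Treg library 3 stood below the rest at Bhlhe40 (162 CPM, the others 206 to 214) and Klf4 (1.24 CPM, the others 1.68 to 1.72). Below its group was KO thymic Treg library 4 at Sh2d1a (162 CPM, the others 197 to 199.7).

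The log2 fold change of aTreg over thymic Treg differed between KO and WT mice, by edgeR's test of the difference adjusted over all 13338 genes, at these genes of the text. KO minus WT was -2.22 at Itgam, -1.91 at Fcgr3, -1.85 at Gzmb, -1.49 at Nid2, -1.39 at Klrg1, -1.21 at Cdkn2c and -1.14 at Ly6a. It was -1.14 at Cxcr3, -1.13 at Birc5, -1.10 at Lgmn, -0.91 at Il10ra, -0.90 at Glrx, -0.83 at Maf and -0.83 at Lgals1. It was further -0.69 at Icos, -0.68 at Capg, -0.67 at Syngr2, -0.65 at S100a11, -0.62 at Ctsz and -0.53 at Ecm1. The positive differences were 1.24 at Prrg1, 0.88 at Tgfbr3, 0.67 at Bcl2l11, 0.64 at Ralgps2, 0.52 at Themis and 0.47 at Satb1.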

How the results depend on the processing

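The count of the main contrast, 5587, stayed within 1.5 times under every alternative, from 3856 with the summed myeloid markers as covariate to 5688 with DESeq2, and 4935 to 5321 with 1 library left out. The over-2-fold count of 756 ranged from 510 with the no-gene read share as covariate to 794 with the block, was 518 without KO thymic libraries 1 and 2, and ran from 650 to 720 with 1 library left out. The WT count of 5377 ran from 4618 to 5002 with 1 library left out. The genotype difference moved most. Against 113 genes, it stood at 30 to 197 with 1 library left out, 54 without KO thymic libraries 1 and 2, 263 with the libraries of the contrast alone, 287 by limma-voom, 340 by DESeq2, 13 with the no-gene read share and 51 with the myeloid sum as covariate, and the cause was not tested. With the myeloid sum as covariate the sign reversed in the main contrast at Cd24a (0.48), Cd8a (0.52) and Il2ra (0.87), and in the genotype difference at Cd24a (1.86). Recalculated list counts stayed within 1.5 times in 988 instances and left that range in 100. Of 188 genes named, 19 lost their call and 6 gained one in the main contrast under at least 1 alternative.

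With the replicate number as a block, the main contrast called 2559 genes higher and 2565 lower. The genotype difference called 428, against 263 on the same libraries without the block. The labels do not say whether equal numbers mark a shared animal or preparation, and the main fit does not pair them. Deviations of same-numbered libraries of the groups correlated at 0.0582 to 0.0910, and those of other pairs at -0.121 to 0.0868. For 3 of 4 numbers the correlation was best with their own. Whether same-numbered libraries share a source was not settled.

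No over-2-fold count was computed by limma-voom or DESeq2. Depth limits genes under about 1 CPM, where single reads decide a value.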
